A study of Oryza sativa with 6 samples.

Results

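The 126 rice loci described here were repressed after 24 h in chromate and stood near their water controls after a short exposure. They were chosen from the deposited log2 ratios of treated over control signal, averaged over the probes of a locus on each array. A locus was taken when its ratio was at most -1.5 on each of the 3 arrays of the 24 h exposure, when its mean over the 3 short arrays was within 0.5 of 0, and when the control signal of at least 1 of its probes was well above background on all 6 arrays. These 126 loci were 0.634% of the 19876 loci whose control signal was well above background throughout, out of 29689 loci with probes. All values were read from whole roots of 6-day-old seedlings of Oryza sativa cv. TN-67. The long samples were kept for 24 h in 50 µM Cr(VI) and the short samples pooled roots taken after 1 h and 3 h at the same concentration, each with roots kept in water as its control and with 3 arrays per exposure. RNA of treated roots carried Cy5 and RNA of water roots Cy3 on every array, with no dye swap, so a dye effect that depends on the probe cannot be told apart from chromate. The 24 h arrays shared 1 slide and the short arrays lay on 2 others, so slide and exposure cannot be told apart either. In the pooled short samples the 1 h and 3 h levels cannot be told apart. A ratio near 0 there need not hold at both times. By their labels the samples are biological replicates. Whether water roots were shared between exposures is not given in the sources used here.

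Cr(VI) is the oxidised, mobile form of chromium. In plants it enters the root as chromate, partly through sulfate transporters, and is reduced in the root to Cr(III), a process that produces reactive oxygen species and damages root tissue. A transcript level reflects both synthesis and decay, and an array reads the level, not either rate. In whole roots, fewer cells of a type and less RNA per cell cannot be told apart. A rice locus number gives the chromosome in its first digits and then a count along it, so that loci with close numbers lie close together. Neither the 126 numbers nor the accessions in the names of their probes matched the table of rice gene symbols used here, so the loci are given by number and no role is assigned to them. For the same reason none of 36 gene lists, among them those meant to check the labelled tissue, could be filled.

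At 24 h the loci stood below most other transcripts of the same arrays, since the rule chose them for low ratios. Their mean deposited log2 ratio had a median of -2.13, which is 4.37-fold lower in chromate than in water. It ran from -4.91 to -1.55, with quartiles of -2.68 and -1.86. By comparison, the 19876 loci with control signal above background had a median of -0.06. Of the 126 loci, 75 had a mean of at most -2, 46 of at most -2.5 and 17 of at most -3. The SD between the 3 arrays had a median of 0.214 and ran from 0.0145 to 1.01, against a median of 0.121 over all loci with control signal above background. The closest triplet belonged to Os07g0619100, with -1.63, -1.60 and -1.63 at 24 h. The widest belonged to Os12g0448900, with -3.11, -3.22 and -4.90. Replicate 3 gave the lowest of the 3 ratios for 60 loci, replicate 2 for 35 and replicate 1 for 31. The share led by replicate 3 was 47.6%, beside 35.3% among the 320 loci repressed at both exposures.

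**Figure D1:**
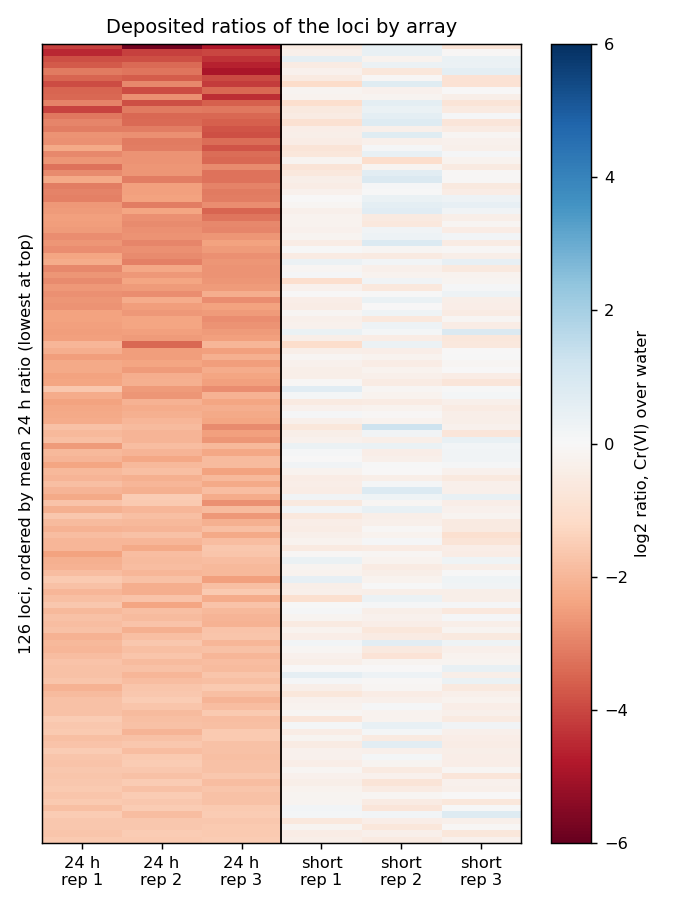
Deposited log2 ratio of Cr(VI) over water for each of the 126 loci (lines) on the 3 arrays at 24 h (left) and the 3 short arrays (right), with red below 0 and blue above 0. Every 24 h value is at most -1.5, since the rule required it, and the short arrays scatter on both sides of 0.

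The 10 loci with the lowest mean ratios were 11.1-fold to 30.1-fold lower in chromate on the deposited scale. Os12g0265900, on chromosome 12, had ratios of -4.10, -5.81 and -4.82 at 24 h, against -0.51, 0.44 and -0.76 after the short exposure. Os03g0365800, on chromosome 3, had -4.52, -4.12 and -4.00 at 24 h, against -0.29, 0.43 and -0.07. Os05g0590300, on chromosome 5, had -3.87, -3.87 and -4.32 at 24 h, against 0.56, -0.23 and 0.39. In all of these the lowest short array stood more than 3 log2 units above the highest 24 h array. Os01g0941200 had -3.67, -3.41 and -4.63 at 24 h, against -0.51, 0.37 and 0.34 after the short exposure. Os11g0593000 had -3.49, -3.65 and -3.98 at 24 h, against -0.55, -0.05 and -0.87, so that its short mean of -0.49 was close to the limit. Os04g0175900 had -3.51, -3.92 and -3.43 at 24 h, against -0.19, -0.25 and -0.02, the quietest short triplet of the 10 apart from that of Os06g0165200. The remaining loci of the 10 were Os12g0448900, Os08g0239300, Os06g0165200 and Os01g0814100, with means from -3.74 to -3.47. Their short arrays had SDs from 0.63 to 0.99 in 3 of these 4 loci and of 0.09 in Os06g0165200, and Os08g0239300 ranged there from -1.08 to 0.74.

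Most of these lowest ratios had a treated signal that was too dim to measure on at least 1 array. Only Os01g0941200 of the 10 had a Cr(VI) signal well above background on all 3 arrays at 24 h. In the whole set that signal was well above background on all 3 of the 24 h arrays for 108 loci, on 2 for 10 loci, on 1 for 4 loci and on none for 4 loci. After the short exposure it was well above background on all 3 arrays for every one of the 126. For the 4 loci without a measurable treated signal at 24 h the fold is only a bound. It sets the control signal against, on each array, the higher of the dimmest treated signal well above background and the probe's own treated signal, after loess and Aquantile normalization, and it is open to dye bias. Transcripts were at least 3.10-fold lower in chromate for Os03g0365800, at least 2.98-fold for Os12g0265900, at least 2.17-fold for Os01g0814100 and at least 1.67-fold for Os08g0239300. For Os03g0365800 and Os12g0265900 the probe's own signal was the higher one, so their bounds equal the folds of their loess ratios of -1.63 and -1.58. All 4 bounds are smaller than the deposited folds of the same loci.

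A second processing of the same spots ordered the loci differently. Here the background was corrected with normexp and an offset of 50, each array was normalized by loess, and the brightest probe stood for its locus. The median at 24 h was then -1.63, with a range from -3.19 to -0.55, and 106 loci were at most -1 and 77 at most -1.5. The 18 loci whose treated signal missed the background criterion on some 24 h array had a median of -3.16 as deposited and of -1.08 after loess. Over the 126 loci the 2 scales had a rank correlation of 0.444, and of 0.600 over the 108 loci with measurable treated signal. The rank correlation with the brightness of the control channel was 0.138 for the deposited ratio and -0.756 for the loess ratio, for which background correction, normalization and probe choice all differed. The control level was computed from the same loess ratios, so part of the negative value is built in. These correlations are across loci that share the same arrays and are given as a description.

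**Figure D2:**
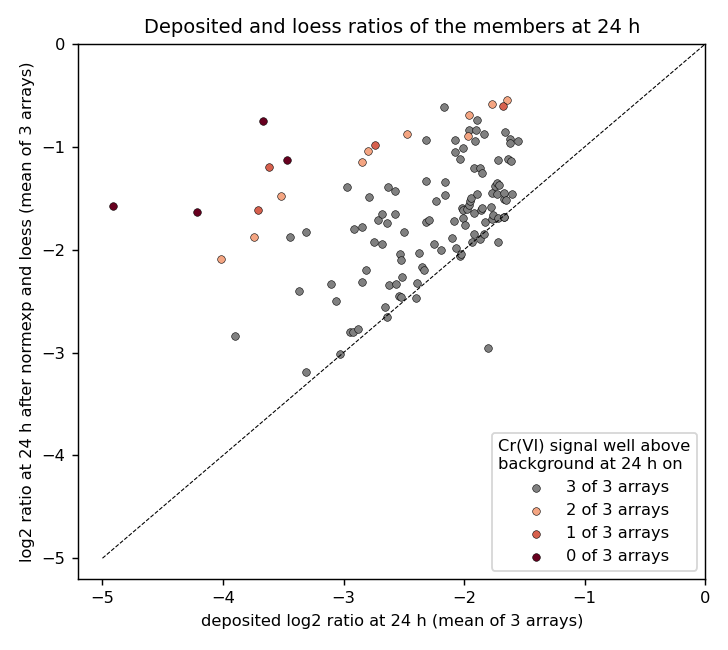
Mean log2 ratio at 24 h of each of the 126 loci as deposited (horizontal) and after normexp and loess (vertical), coloured by the number of 24 h arrays with Cr(VI) signal well above background. Points on the dashed line have the same value on both scales, and the loci with treated signal on fewer arrays lie above it.

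Among loci measurable in both channels, the lowest after loess was Os11g0691100 on chromosome 11, which was also bright. Its deposited ratios were -2.93, -3.41 and -3.59 at 24 h, against -0.90, 0.79 and -0.72 after the short exposure, and its loess mean at 24 h was -3.19. Next came the neighbours Os03g0730400 and Os03g0730500 on chromosome 3, at -3.02 and -2.96 after loess. These values rest on the brightest probe, and the mean over the probes of each locus was -1.90 and -1.51 after loess, which would move both down this order. Os01g0941200 followed at -2.84, and Os05g0153300 on chromosome 5 at -2.80. Os05g0153300 had deposited ratios of -2.66, -2.72 and -3.46 at 24 h, against -0.15, -1.04 and -0.23 after the short exposure, so 1 short array was low too. Os03g0291500, at -2.65 after loess, had deposited ratios of -2.22, -3.04 and -2.67 at 24 h, against 0.34, 0.17 and 0.50 after the short exposure. It was thus among the 9 loci with all 3 short arrays above 0. These loci were singled out after their values were seen.

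After the short exposure the set was not uniformly at 0. The mean ratio over the 3 short arrays had a median of -0.24, against -0.12 over all loci with control signal above background, and ran from -0.50 to 0.46. All 3 short arrays were below 0 for 57 loci and above 0 for 9, and the signs were mixed for 60. Since the rule used the mean, single arrays could pass its limit: 74 loci had a short array more than 0.5 from 0, and in 60 of them an array was at or below -0.5. The other 52 loci kept all 3 short arrays within 0.5, and 9 kept them within 0.25. Of these 9, Os01g0812100 had 0.02, -0.12 and -0.09 after the short exposure beside a 24 h mean of -2.68 ± 0.11 (SD, n = 3). Os06g0219900 had 0.09, -0.22 and -0.22 beside -2.63 ± 0.04 (SD, n = 3), and Os03g0845600 had 0.02, 0.07 and 0.05 beside -1.90 ± 0.42 (SD, n = 3). Their loess means at 24 h were -1.94, -1.39 and -0.84 in the same order, and Os03g0845600 stood near the limit on 2 of its 24 h arrays, at -1.63 and -1.69.

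Short replicate 2 was the highest of the 3 for 59 loci, or 46.8%, beside 34.0% of all loci with control signal above background, while replicate 1 was the highest for 28 and replicate 3 for 39. Among the 46 loci with a 24 h mean of at most -2.5, replicate 2 was the highest short array in 30 and was above 0 in 28. Among the other 80 loci it was above 0 in 21. Without this array 121 loci met the rule, beside 132 without short replicate 1 and 134 without short replicate 3.

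**Figure D3:**
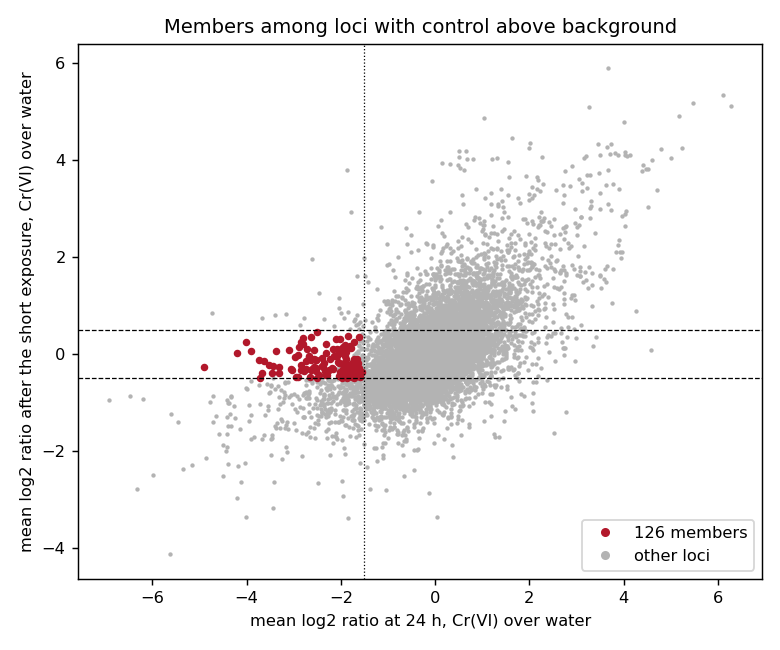
Mean deposited log2 ratio of Cr(VI) over water at 24 h (horizontal) and after the short exposure (vertical) for loci with control signal above background, with the 126 loci in red. Dashed lines mark the short limits of -0.5 and 0.5 and the dotted line marks -1.5, and most loci repressed at 24 h lie below the lower dashed line.

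The set is the smaller share of what was repressed at 24 h. Of 463 loci at or below -1.5 on each 24 h array, 126 (27.2%) had a short mean within 0.5 of 0, 320 were already below -0.5 after the short exposure and 17 were above 0.5. The 320 loci had a median 24 h mean of -2.39, against -2.13 in the 126. In the opposite direction, 374 loci met the mirrored limit at 24 h, and 49 of them had a short mean within 0.5 of 0. The background criterion stayed on the control channel, the lower one for induced loci, so the directions were not filtered alike. These counts follow from the rule and were not tested.

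One limma model over all 6 arrays placed the loci among 23217 tested, with Benjamini-Hochberg adjustment and a threshold of 0.05. At 24 h 125 of the 125 tested loci were lower in chromate than in water, beside 31.1% of all loci tested, a count fixed by the choice of loci. Os09g0248900, whose deposited mean was -2.39, kept too few usable values for the model. For the difference of the ratios, 24 h minus short, 124 of 125 were lower at 24 h, beside 22.5% of all. The exception was Os08g0239300, whose short arrays spread widely and whose treated signal at 24 h was not well above background. After the short exposure 33 of the 125 were lower in chromate, beside 24.3% of all loci tested, and 8 were higher, beside 30.6%. Since the rule kept short means near 0, nothing is read from these counts. The lowest of them was Os10g0113100 at -0.66 after loess and the highest Os01g0700900 at 0.55, while the other called loci lay between these values. The number that passed after the short exposure was 41 over both directions, beside 54.9% of all loci tested. Omitting short replicate 1 left 23, beside 44.6% of all loci, and omitting short replicate 3 left 24, beside 42.1%.

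The 2 channels could be set apart after loess and Aquantile normalization. The choice of loci by their ratios on these same spots builds in a lower treated level or a higher control level at 24 h, so the values here show only how the difference was divided between the channels. In the treated channel the loci were lower at 24 h than in the short samples by a median log2 difference of -1.43, against -0.06 over all loci with control signal above background. In the control channel the median difference was 0.03, against -0.0012 over all. The treated level was lower at 24 h for 125 of the 126, and by more than 1 log2 unit for 95 (75.4%, against 5.33% of all loci with control signal above background). Os11g0691100 shows this pattern, with treated levels of 10.90 at 24 h and 14.10 after the short exposure, and control levels of 14.10 and 14.40. Os03g0291500 had treated levels of 10.02 at 24 h and 12.98 after the short exposure, and control levels of 12.67 and 12.64. The water roots of the exposures differed by only -0.31 and 0.03 log2 units in these loci, 24 h minus short.

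For 7 of the 126 loci the picture was different, because the mean control level was higher at 24 h by more than the mean treated level was lower. Os12g0227400 had control levels of 10.47 at 24 h and 8.79 after the short exposure, while its treated levels were 8.78 and 8.58, so its treated signal was not lower at 24 h at all. Os03g0288000 had control levels of 13.37 at 24 h and 11.82 after the short exposure, beside treated levels of 11.03 and 11.83. In Os01g0563000 the control levels were 11.50 at 24 h and 9.72 after the short exposure, beside treated levels of 8.73 and 10.05. The other loci of this kind were Os12g0568500, Os12g0571000, Os07g0645300 and Os01g0700500, with control differences from 0.98 to 1.55. In the test of the control channel given next, 3 of these 7 loci passed and 4 did not.

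The control channel was also tested by itself with limma, between exposures. There 7 of the 125 loci differed, beside 4.54% of all loci tested. Os01g0563000, Os12g0227400, Os03g0288000 and Os11g0167800 were higher in water roots at 24 h than after the short exposure, with log2 differences of 1.73, 1.64, 1.52 and 0.75. Os01g0362100, Os07g0643400 and Os03g0628800 were lower there, with -0.89, -0.73 and -0.71. Leaving out a single array moved this count in the same direction as that of all loci, except for short replicate 2. It was 21 without short replicate 1 (16.8%, beside 17.0% of all loci), 8 without short replicate 2 (6.50%, beside 1.72%) and 1 without 24 h replicate 3 (0.800%, beside 0.397%). Without short replicate 3, 24 h replicate 1 or 24 h replicate 2 it was 0, as it was for all loci, and limma at an unadjusted p under 0.05 gave 31, 34 and 30 (25.2%, 27.2% and 24.0%, beside 22.4%, 18.9% and 19.3% of all loci). With each array scaled to its 75th percentile it was 32 (25.6%, beside 29.1%). Slide moves with exposure here, and its part in these control levels cannot be told apart.

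The 126 loci were read by 177 probes. In the names of the probes, 119 are tagged as lying in coding sequence plus 3' UTR, 3 in coding sequence and 2 in 5' UTR plus coding sequence. The other 53 probes (29.9%) carry tags that name no region, beside 17.4% of the probes of all loci with control signal above background. At least 1 probe tagged as mRNA was present for 75 loci (59.5%), beside 74.3% of all loci with control signal above background. The set is therefore somewhat poorer in loci with an mRNA-tagged probe than those loci, a difference that was not tested.

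Where a locus had several probes, most gave similar ratios. The loci were chosen by the mean over these same probes, so such agreement is partly built in. No range between probes was computed for unselected loci. Of 31 such loci, 22 had every probe at or below -1.5 on each 24 h array, and the median range between the probes of a locus was 0.410 log2 units. The 4 probes of Os05g0382600 had 24 h means from -1.99 to -1.86, and the 5 of Os06g0112100 from -2.52 to -2.15. The 5 probes of Os07g0650600 lay between -2.67 and -2.15. Such agreement was missing in 7 loci whose probes differed by more than 1. In Os01g0563000, 5 probes lay between -3.53 and -3.11 and the remaining one, whose control signal was well above background on 2 arrays, at -0.81. Os03g0730500 had the widest range, with 1 probe at -3.47 and the other at -0.13, whose control signal was above background on 3 of 6 arrays. In Os11g0591000 both probes had control signal above background on all 6 arrays, yet they read -3.33 and -1.30, and the treated signal of the lower one was not above background on any 24 h array. The locus mean of -2.31 therefore describes neither probe.

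**Figure D4:**
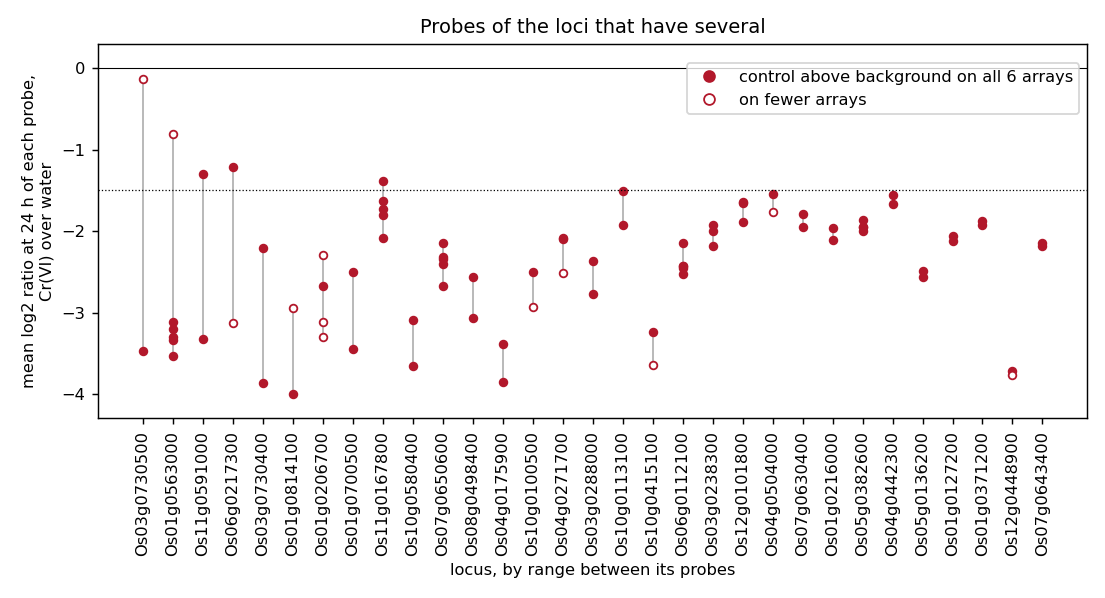
Mean deposited log2 ratio at 24 h of each probe of the 31 loci with several probes, ordered by the range between probes, with filled points for probes with control signal above background on all 6 arrays. The dotted line marks -1.5, and the probes of the loci on the left differ by more than 1.

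Loci of the set lay near each other on the chromosomes more often than loci with control signal above background lay near them. In the order of locus numbers over all array loci, 22 of the 126 (17.5%) had another of the set within 5 places, whereas 3.93% of all loci with control signal above background lay that close to one. Next to each other were 8 (6.35%, against 0.850%). The same measure gave 20.3% against 9.42% for the 320 loci repressed at both exposures, and 8.16% against 1.51% for the 49 induced only at 24 h, so nearness is not particular to the 126. The measure was chosen after the data were seen and has no test. Neighbouring rice genes are often copies of one another, and whether a probe reads more than 1 of the neighbours was not tested, since probe sequences were not used here.

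The 22 loci formed 8 pairs and 2 triplets. Os07g0638800 and Os07g0638900 on chromosome 7 were nearly equal on every array. The first had -2.39, -2.62 and -2.58 at 24 h, against -0.13, 0.26 and -0.51 after the short exposure. The second had -2.48, -2.39 and -2.70 at 24 h, against -0.23, 0.31 and -0.44. Both were highest on short replicate 2, and the flanking loci Os07g0638500, Os07g0638600, Os07g0639000 and Os07g0639400 had 24 h means of -0.41, -0.05, 0.65 and 1.503.

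A triplet on chromosome 1 held the locus with the highest short mean of the whole set, Os01g0700900. This locus had -2.51, -2.45 and -2.57 at 24 h, against 0.40, 0.10 and 0.88 after the short exposure. Beside it, Os01g0700500 had -2.87, -2.70 and -3.35 at 24 h, against -0.69, 0.45 and 0.05. Os01g0701400 had -2.76, -2.79 and -2.18 at 24 h, against -0.05, 0.01 and 0.30. All 3 loci were above 0 on short replicates 2 and 3, and on replicate 1 only Os01g0700900 was. The triplet on chromosome 10 was less deep. Os10g0360600, Os10g0361000 and Os10g0361900 had 24 h means of -1.77, -2.31 and -1.92, and the loci between them with control signal above background, Os10g0360700 and Os10g0360900, had -0.59 and 0.14.

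On chromosome 4 the repression ran on past the pair. Os04g0308400 and Os04g0308600 had 24 h means of -1.84 ± 0.16 and -1.67 ± 0.09 (SD, n = 3 each). Os04g0308500 between them had -1.58 ± 0.16 with a short mean of -0.16, and missed the 24 h limit on at least 1 array. Os04g0308300 beside them had -1.61 with a short mean of -0.51, past the short limit. These 4 adjacent loci had nearly the same 24 h ratio although the rule took only 2 of them. On chromosome 3, Os03g0730400 and Os03g0730500 had means of -3.03 and -1.80, and the lower value of the first and the bright probe of the second, -3.86 and -3.47, were closer to each other than the locus means.

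**Figure D5:**
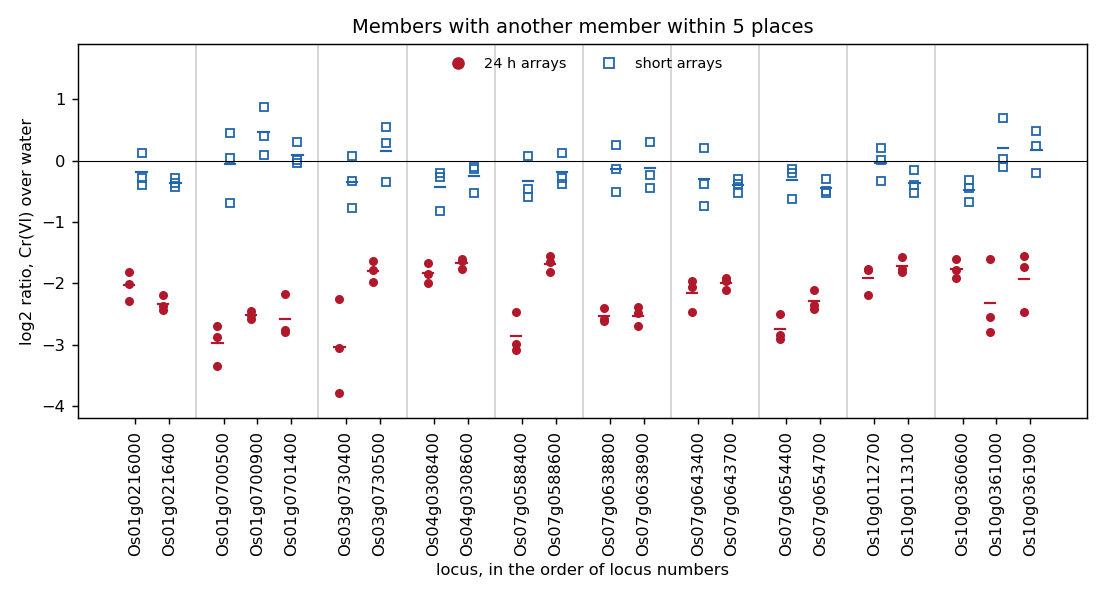
Deposited log2 ratio of Cr(VI) over water on each array for the 22 loci that had another of the set within 5 places, with 24 h arrays as filled circles left of the short arrays as open squares, and short lines at the means. Grey lines separate the 10 groups, and the 24 h and the short arrays overlap in none of these loci, as the rule largely fixes.

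The remaining pairs were Os01g0216000 with Os01g0216400, Os07g0588400 with Os07g0588600, Os07g0643400 with Os07g0643700, Os07g0654400 with Os07g0654700, and Os10g0112700 with Os10g0113100. Their 24 h means, in that order, were -2.03 and -2.33, -2.85 and -1.68, -2.16 and -1.99, -2.75 and -2.29, and -1.91 and -1.72. The members of a pair thus differed by under 0.5 log2 units in all of these but Os07g0588400 and Os07g0588600, where the treated signal of Os07g0588600 was above background on 1 of the 24 h arrays. Chromosome 7 held 4 of the 8 pairs. Of the unselected loci directly beside one of the set and with control signal above background, 24 of 161 (14.9%) had a 24 h mean of at most -1, beside 6.32% of the 19750 unselected loci. In the limma model 18 of 156 such neighbours (11.5%) were lower at 24 h by at least 2-fold, beside 3.44% of all loci tested, and 58 (37.2%) were lower at any size, beside 31.1%. The share was thus above that of all loci for large changes and closer to it for calls of any size, and neither difference was tested.

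All 12 chromosomes held loci of the set. Chromosome 1 had 23, chromosome 3 had 16, chromosome 7 had 15, chromosome 4 had 14, chromosomes 5 and 12 had 11 each and chromosome 10 had 10. Chromosome 2 had 7, chromosomes 6, 8 and 11 had 5 each and chromosome 9 had 4. Set against the loci with control signal above background, the share was 0.989% on chromosome 7, 0.984% on chromosome 12 and 0.943% on chromosome 10, and lowest on chromosomes 2 and 6 with 0.302% and 0.310%. Pairs and triplets contribute to the shares of chromosomes 7 and 10.

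The limits of the rule cut through a continuum. Just inside the 24 h limit, the highest arrays of Os03g0133600, Os01g0312500 and Os04g0491200 stood at -1.501, -1.503 and -1.507. Just outside it, those of Os10g0125700, Os01g0710700 and Os06g0675700 stood at -1.492, -1.482 and -1.480, and Os10g0125700 had a 24 h mean as low as -2.09. At the short limit, Os12g0101800, Os05g0586500 and Os04g0555700 were inside with means of -0.499, -0.499 and -0.491, while Os02g0830200, Os02g0641000 and Os06g0158400 were outside with -0.501, -0.503 and -0.505. Os02g0641000 had a 24 h mean of -3.44, deeper than all but 10 of the 126. A further 41 loci met both ratio limits but lacked control signal above background on all 6 arrays.

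Each 24 h array could be compared with loci chosen without its ratios. When the rule was applied to the other arrays, 138 loci met it without 24 h replicate 1, 139 without replicate 2 and 150 without replicate 3. On the array left out, 91.3%, 90.6% and 84.0% of them were at or below -1.5, beside 3.19%, 3.37% and 3.10% of all loci with control signal above background. Their medians there were -2.04, -2.02 and -2.01, and every one of them was below 0 on the array left out. The least repressed values were -0.72, -0.76 and -0.49. The loci at or below -1.5 on the array left out were the same 126 each time, since those loci meet the full rule by definition. Ratios below 0 were thus also read where they had no part in the choice. The control background of that array did take part, and all 3 arrays share a slide, so these shares are a description.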

How the data were processed

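Treated and water roots were compared on 6 dual-colour Agilent arrays, 3 per exposure. The spot intensity values were deposited as scanner output of Agilent Feature Extraction, per the file headers, on a linear scale. The deposited log2 ratios matched, array by array, the quotient of the processed red and green signals, so its scale and direction are settled, and it was not centred (column medians -0.178 to 0.0385).

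The members were chosen from the deposited log2 ratios, so these values are a description with no test. For the model, median intensity values were corrected with normexp (offset 50), followed by loess within each array (limma 3.58.1, R 4.3.3). Of 43734 spots per array, 163 to 1936 were outliers and left out, and no spot was saturated. The brightest probe stood for its locus. A locus was tested if 1 of its channels stood well above background on 3 or more arrays and 2 or more values per exposure were left. One model (lmFit, eBayes) over 6 arrays had 4 residual and 4.36 prior degrees of freedom, with Benjamini-Hochberg adjustment over 23508 genes, of which 23217 were loci. The control channel was tested on log2 Cy3 after quantile normalization. Signal was well above background for 68.1% to 82.5% of spots in green and 73.0% to 80.3% in red, and the number of arrays limits the precision. P-values set each change against the spread between these arrays and cannot separate slide from exposure.

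Every member is unnamed, so the named genes are the 10 lowest members, those with another member within 5 places (by locus number, because the reference order could not be matched) and 3 loci on each side of each limit. Loci named for channels, probes or short ratios were chosen after their values were seen. Members and lists were chosen with earlier results of these data known. No genome build was used. Alternatives changed the limits, probes, centring, normalization, offset, filter, variance prior, slide, replicate number and arrays. The background correction, the loess step and the 24 h term of the model were tested on simulated data.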

Additional observations from a re-analysis of the deposited data

Results flagged for a closer look

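The ratios of 124 of the 125 tested loci differed between the exposures, lower at 24 h than in the short samples, by the difference term of the limma model at an adjusted p under 0.05. The rule chose the loci for this contrast, so the count is a description, and it stands beside 22.5% of all loci tested. Every 24 h array and every short array of a locus differ in slide as well.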

How the results depend on the processing

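The number of loci that met the rule followed its limits: it was 317 with a 24 h limit of -1 and 58 with -2, and 56 with a short limit of 0.25 and 293 with 1. Loess ratios gave 71, of which 48 were among the 126. Ratios centred on the median of each array gave 150 (115 shared), the brightest probe 128 (119 shared), no background criterion 167 and both channels above background 108. Leaving out an array gave 121 to 150. The count lower at 24 h in the model was 123 to 126 over all alternatives run, which was every tested locus of the set each time. Of all loci tested, 25.3% to 37.4% were lower. The count lower at 24 h than in the short samples was 121 to 126, beside 17.5% to 27.4% of all loci. Both counts follow from the choice of loci. The 41 loci that passed after the short exposure became 22 with median centring (17.6%, beside 41.7% of all loci, against 32.8% and 54.9% before), and 23 to 38 when an array was left out (42.1% to 56.5% of all loci). The 7 that differed in the control channel became 32 with scaling to the 75th percentile (25.6%, beside 29.1% of all loci), and 0 to 21 when an array was left out (0 to 3906 of all loci). The cause was not tested. Counting places only among loci with control signal above background, an order chosen after seeing the data, gave 25 loci (19.8%, against 5.68%) with another of the set within 5 places and 19 (15.1%, against 1.25%) next to one, since fewer loci lie between. With loess ratios averaged over probes, the 24 h ratio moved by more than its SD in 27 of the 32 loci named by rule. With the brightest probe of the deposited ratios it did so in 5, and none changed sign.

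With a replicate block, 125 loci were lower at 24 h and 125 were lower at 24 h than in the short samples, and 33 passed after the short exposure. Over all loci the block gave 6672 and 4412 lower and 11327 that passed after the short exposure. Deviations of arrays with the same number correlated at -0.23, -0.12 and -0.10, and none matched its own number best. Whether the numbers pair the samples cannot be decided from this, since each exposure has few arrays and the exposures lie on different slides. With slide as a random block (estimated correlation -0.106) the counts were 125, 125 and 46, beside 7804, 5940 and 13486 of all loci. Loci without treated signal above background at 24 h have only bounds on their folds.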
